A study of Mus musculus with 94 samples.

Results

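Embryoid bodies of 1 WAPL-degron clone were compared at day 7 and day 10 of differentiation, with no protein degraded in either group. The members were the 4 poly(A) RNA-seq libraries of clone H7 that received the solvent DMSO, 2 from day 7 and 2 from day 10, out of 94 samples in the series and 14 RNA-seq libraries with a count table. They were chosen by their labels alone. The cells of both groups were mouse embryonic stem cells of a CAST/Ei x 129/Sv/Jae cross, labelled as a Tsix-stop line, in which WAPL carried an FKBP degron tag, WAPL-FKBP(degron). Both groups had had DMSO for 3 days, the day 7 group from day 4 and the day 10 group from day 7. The stem cells were kept on irradiated embryonic fibroblast feeders with LIF, a cytokine that holds them undifferentiated. Differentiation began with LIF withdrawal in suspension, and the bodies were moved to gelatin-coated plates on day 4. All 4 libraries therefore carry the tag and the Tsix-stop allele, and they stand for 1 clone. Nothing in the labels says whether the 2 libraries of a day were separate cultures, so p-values measure the spread between these libraries, which may be technical.

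Embryoid bodies are aggregates of stem cells that leave pluripotency and form cell types of the 3 germ layers in an order that resembles the embryo. The epiblast, the founder tissue of the embryo, first gives rise to a primitive streak, where Nodal, Wnt and BMP signals direct cells into mesoderm and definitive endoderm. Later, organ-specific regulators and structural genes of heart, connective tissue, epithelium and nerve appear. WAPL is the factor that releases the cohesin ring from chromatin, and the tag lets a small molecule, dTAG-13, send it to degradation. That molecule was absent from the 4 libraries described here.

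The tables held between 18529788 and 35388461 counts per library. The day 7 and day 10 libraries came from separate deposited tables, so day and table cannot be told apart. The day 10 table listed 14997 genes, all of them among the 24421 of the day 7 table, and 14143 passed a filter on low counts. The 9424 genes listed for day 7 only could not be compared, and they held at most 0.105% of the counts of a day 7 library. Replicates lay closer together at day 7 than at day 10, with a median absolute log2 difference per gene of 0.136 and 0.309. Between the day 10 libraries, 79 of 82 ribosomal protein genes were lower in replicate 2, with a median log2 difference of -0.56, and their share of counts was 1.47% in replicate 1 and 0.966% in replicate 2. The 7 Y-linked genes in the list, all in the day 7 table only, summed to 9 and 6 counts in its libraries.

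At day 10, 179 genes were higher and 18 were lower than at day 7, at an adjusted p under 0.05 (edgeR quasi-likelihood test, Benjamini-Hochberg adjustment over all genes tested). These were 1.27% and 0.127% of the genes tested, and 172 of the rises and 16 of the falls were at least 2-fold. Both shares are the background for the calls of every list below. With so few falls over all genes, 0 falls in a list says little about that list. The median log2 fold change was 1.96 among the risers, -1.63 among the fallers and -0.0029 over all genes tested. Positive values were found in 7023 of the genes tested and negative values in 7120, the background for counts of signs below. Among the risers, 34 reached the minimum of the filter on low counts in both day 10 libraries but not in both day 7 libraries, so they passed it through day 10 alone, and their being tested rests on their day 10 level. Of the genes described here these were Pcsk5, Usp18, Sox17, Shh, Sprr2a3, Spink1, Lhx1os, Hoxd9, Hoxd10, Csrp3, Isl1, Hand2, Myl4, Cfc1, Pilra, Csf1r and Postn. Groups that did not overlap were common, at 24% of all genes tested on the higher side and 23.1% on the lower, so lack of overlap says little about a single gene. The number of calls turned on the day 10 libraries and was larger without either of them. Falls outnumbered rises without day 10 replicate 2, and rises outnumbered falls without day 10 replicate 1. The balance of rises and falls thus also turned on 1 library. In both cases all 197 genes (1.39% of those tested) were still called, but some of them lost their call when a day 7 library was left out instead.

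**Figure D1:**
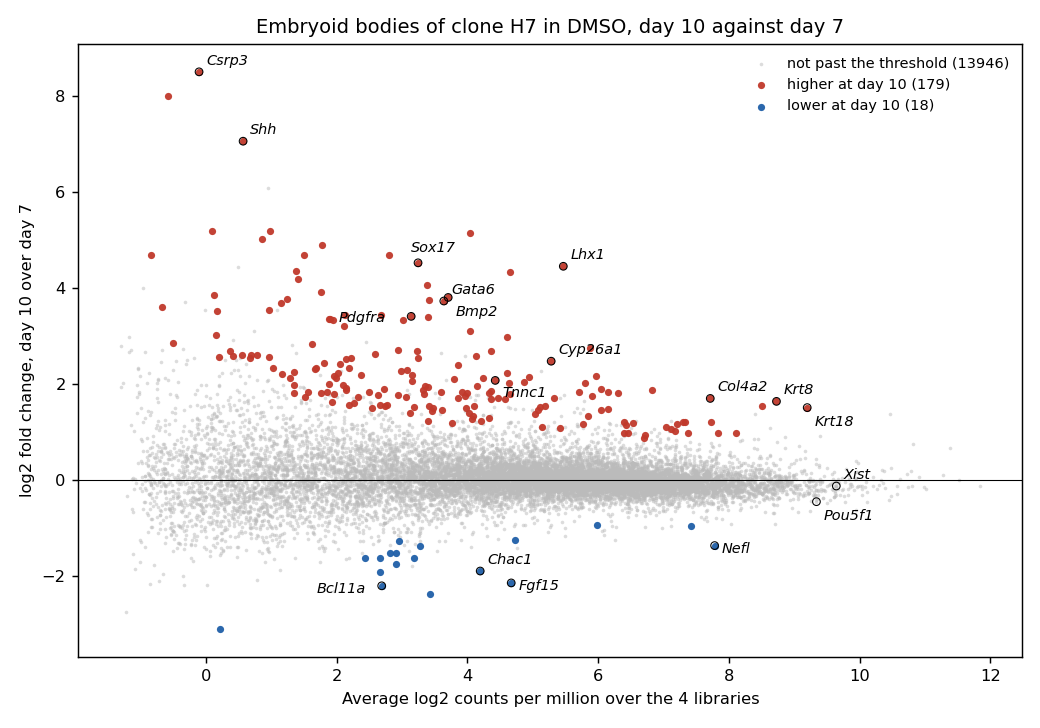
Each point is 1 of the 14143 genes tested, with the average log2 CPM (counts scaled to a common library total) over the 4 libraries across and the log2 fold change of day 10 over day 7 upwards. The 179 genes higher at day 10 (red) outnumber the 18 lower (blue), and Lhx1 and Sox17 stand among the highest rises of well-expressed genes while Xist (-0.13) and Pou5f1 (-0.46) were not called.

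Regulators of the primitive streak and of the anterior tissue that follows it were among the strongest rises. Lhx1, a LIM homeobox factor of the node and early mesendoderm, stood at 4.82 and 2.82 CPM in the day 7 libraries and at 69.6 and 100.2 CPM in the day 10 libraries. Its log2 fold change was 4.45 (SE 0.33, adjusted p = 0.00959). In a bulk sample, more cells of a type and more RNA per cell cannot be told apart, here and below. The transcript Lhx1os, named for its place beside Lhx1, was at 3 counts over both day 7 libraries and 83 over both day 10 libraries, a ratio of 39.8 (95% counting interval 13.1 to 197). The counting rule's use of strand is not given in the sources used here, so reads of Lhx1os and Lhx1 may not be separable.

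Mixl1, a homeobox factor of the streak, rose from 12.3 and 10.3 CPM to 31.5 and 41.5 CPM. Gsc (goosecoid), a marker of the anterior streak and organizer, rose from 4.40 and 4.68 CPM to 17.2 and 14.2 CPM, a call lost in the fit with 8 libraries of clone H7 (adjusted p = 0.0593, the highest of 13 alternative analyses). Cer1, a secreted inhibitor of Nodal, BMP and Wnt made by anterior endoderm, rose from 0.705 and 0.621 CPM to 8.60 and 5.09 CPM. In each of these the lower day 10 library was more than 2-fold above the higher day 7 library. Cdx2, a caudal homeobox factor of posterior embryo and trophoblast, rose from 3.35 and 1.62 CPM to 15.5 and 17.4 CPM (log2 2.68, SE 0.34, adjusted p = 0.0248). Cfc1, a co-receptor for Nodal, had a log2 fold change of 3.35 (SE 0.42, adjusted p = 0.0241).

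The streak list as a whole did not move together. Of its 19 tested members 5 rose (Lhx1, Mixl1, Gsc, Cer1 and Cdx2) and 0 fell, against 1.27% and 0.127% of all genes tested. The list's median log2 fold change was 0.26. Brachyury (T), the classical streak gene, was already at 168 and 161 CPM at day 7 and was at 223 and 209 CPM at day 10, a log2 fold change of 0.39 that did not pass (SE 0.14, adjusted p = 0.246). The groups of T did not overlap, as in 24% of all genes. Eomes, another T-box factor of the streak, was at 141 and 137 CPM and then at 130 and 158 CPM, with overlapping groups.

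Some endoderm regulators rose, and the genes of mature liver and yolk sac could not be compared. Sox17, an HMG-box factor that specifies endoderm, was at 1.07 and 0.430 CPM at day 7 and at 18.5 and 18.3 CPM at day 10 (log2 4.52, SE 0.37, adjusted p = 0.00959). Gata6, a zinc finger factor of endoderm and heart mesoderm, was at 2.31 and 1.10 CPM and then at 19.1 and 27.7 CPM (log2 3.72, SE 0.38, adjusted p = 0.0144). Foxa2, a forkhead factor of endoderm, node and floor plate, rose from 4.96 and 3.63 CPM to 17.3 and 14.2 CPM. Both day 10 libraries were several-fold above both day 7 libraries in all 3 genes. Cxcr4, a chemokine receptor found on definitive endoderm and migrating mesoderm, rose from 1.35 and 1.62 CPM to 13.5 and 16.3 CPM.

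Of the endoderm list, 14 of 24 members were tested. Sox17, Gata6, Foxa2 and the secreted protease inhibitor gene Spink1 rose, 0 fell, 6 had negative values, and the median log2 fold change was 0.81. The shares over all genes tested were 1.27% higher and 0.127% lower. Sox17 and Spink1 passed the filter through day 10 alone, which tilts the list's count of rises and its median upward. The other 10 members, among them Afp, Alb, Ttr and Apoa1, were in the day 7 table only. Shh, a morphogen of node, notochord and gut endoderm, was at 1 count over both day 7 libraries and at 54 and 65 counts in the day 10 libraries, a ratio of 171 (95% counting interval 30.1 to 6815), and it passed the filter on low counts through day 10 alone. Intervals on counts cover counting error only. Of the 9 tested members of the Hedgehog list Shh was the 1 gene called, and the pathway's target Gli1 was at 7.30 and 5.78 CPM at day 7 and at 8.08 and 7.28 CPM at day 10.

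Secreted signals rose alongside these regulators. Bmp2, a ligand of the bone morphogenetic protein family, was at 1.83 and 1.67 CPM at day 7 and at 20.4 and 28.6 CPM at day 10 (log2 3.80, SE 0.27, adjusted p = 0.00959). Bmp4, the family's main mesoderm inducer in the embryo, rose from 12.2 and 10.6 CPM to 43.3 and 57.6 CPM. Nog (noggin), which binds and blocks BMP ligands, rose from 4.62 and 4.68 CPM to 19.2 and 29.9 CPM. A pair of ligands and 1 of their antagonists were thus higher together. These 3 were the called members among 15 tested of the BMP list, against 1.27% called higher of all genes tested. The list had 0 falls, against 0.127% of all genes, and a median log2 fold change of 0.52. Bmp5 was at 0.0846 and 0 CPM at day 7 and at 1.41 and 6.38 CPM at day 10, far apart between replicates, and its adjusted p was 0.0543. The intracellular inhibitor Smad7 was lower in value, at 92.5 and 91.8 CPM and then 54.8 and 58.2 CPM, and did not pass (adjusted p = 0.0851).

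Among Wnt ligands, Wnt5a rose from 5.72 and 4.77 CPM to 16 and 29.2 CPM and Wnt7a from 4.85 and 5.92 CPM to 15.2 and 22.8 CPM. Wnt5a acts mostly outside beta-catenin signalling. These were the 2 called of 15 tested ligands, against 1.27% called higher of all genes tested. A positive log2 fold change was found in 13 of the 15, against 7023 of all 14143 genes, and the list's median was 1.02. In 12 of the 15, replicate 2 was the higher day 10 library. Dkk1, a secreted Wnt antagonist and itself a Wnt target, rose from 0.987 and 1.24 CPM to 12 and 11.8 CPM (log2 3.43, SE 0.26, adjusted p = 0.00959). It was the 1 called member among 10 Wnt targets, and Axin2, a target used as a readout of the pathway, was at 44.0 and 52.4 CPM at day 7 and at 49.9 and 63.4 CPM at day 10.

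Fgf10, a mesenchymal growth factor of limb and lung buds, rose from 1.78 and 1.91 CPM to 10.5 and 28.2 CPM, with a wide gap between the day 10 libraries. Its adjusted p was 0.0321, and it did not pass with limma-voom (adjusted p = 0.0548, the highest of 13 alternatives). Aplnr, the apelin receptor of nascent mesoderm, rose from 1.52 and 0.764 CPM to 23.1 and 16.8 CPM. Pcsk5, a proprotein convertase that activates TGF-beta family precursors, had a log2 fold change of 4.68 (SE 0.34, adjusted p = 0.00959), from 0.592 and 0.430 CPM to 11.1 and 16.1 CPM. Nrp1, a co-receptor for VEGF and semaphorins, rose from 2.34 and 2.43 CPM to 27 and 69.4 CPM.

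Retinoic acid is made by ALDH1A enzymes and broken down by CYP26A1, whose gene is also a direct target of retinoic acid receptors. Cyp26a1 rose from 15.0 and 8.69 CPM to 70.1 and 62.0 CPM (log2 2.47, SE 0.28, adjusted p = 0.0201). Aldh1a2, which makes retinoic acid in early mesoderm, rose from 1.10 and 0.955 CPM to 3.70 and 4.44 CPM, and lost its call without day 7 replicate 2 (adjusted p = 0.0574, the highest of its alternatives). These were the 2 called of 12 tested genes of the list, with 0 falls, against 1.27% higher and 0.127% lower of all genes tested. The list's median log2 fold change was 0.43. The retinoic acid receptor gene Rarb, also a known target, was at 1.24 and 0.859 CPM and then at 1.46 and 1.25 CPM.

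**Figure D2:**
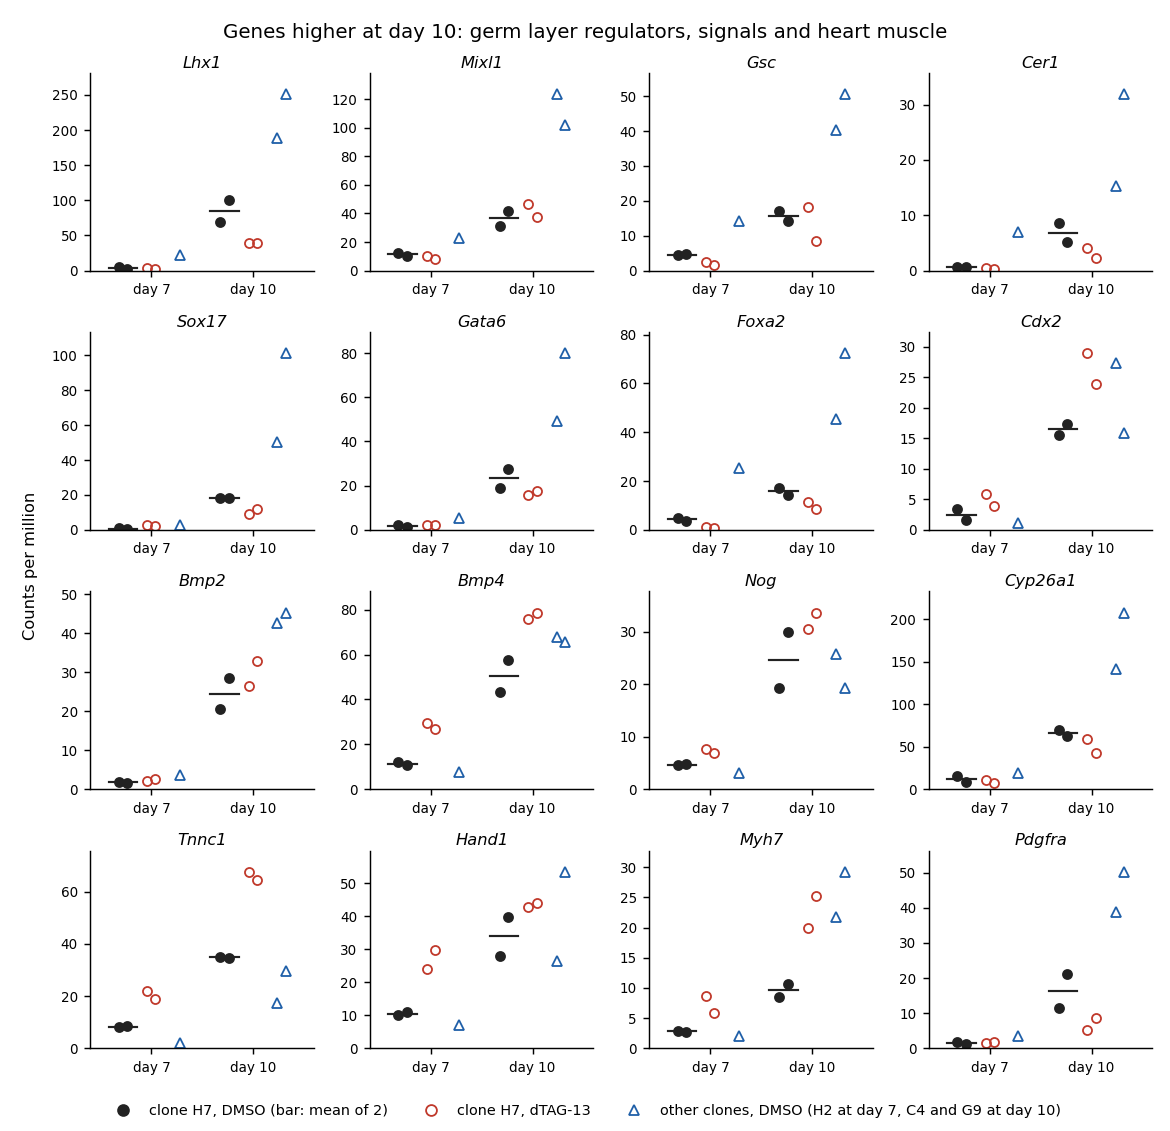
CPM (upward axis, linear, from 0) of 16 genes that rose, at day 7 and day 10, with 1 marker per library: filled circles are the 4 DMSO libraries of clone H7 with a bar at the mean of each day, open circles its dTAG-13 libraries and triangles DMSO libraries of other clones. The filled circles of day 10 lie above those of day 7 in every panel, and Bmp2 goes from 1.83 and 1.67 CPM to 20.4 and 28.6 CPM.

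The promoters of Cyp26a1, which rose, and of Chac1, which fell and is described with the falls, are shown because each holds a match to an element known from its pathway. Both were picked after the values were seen. They run from 250 bases before to 50 bases after the annotated start of the gene (RefSeq, GRCm38.p6, both on the plus strand) and are written 5′ to 3′, with the match in capitals. The Cyp26a1 promoter is at chr19:37697558-37697857 and the Chac1 promoter at chr2:119350992-119351291.
Cyp26a1: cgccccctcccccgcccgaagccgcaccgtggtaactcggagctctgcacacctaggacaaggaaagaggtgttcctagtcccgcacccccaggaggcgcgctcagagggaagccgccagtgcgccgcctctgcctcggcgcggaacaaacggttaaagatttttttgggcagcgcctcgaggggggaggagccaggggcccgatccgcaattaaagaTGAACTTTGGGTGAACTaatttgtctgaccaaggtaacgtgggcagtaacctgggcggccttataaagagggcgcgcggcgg
Chac1: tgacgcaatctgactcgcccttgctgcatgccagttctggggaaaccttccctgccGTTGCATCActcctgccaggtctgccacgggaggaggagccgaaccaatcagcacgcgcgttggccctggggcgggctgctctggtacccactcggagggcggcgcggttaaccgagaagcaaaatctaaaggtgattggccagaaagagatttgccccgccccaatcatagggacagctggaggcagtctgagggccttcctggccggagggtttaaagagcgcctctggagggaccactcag

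The element searched in the first was a retinoic acid response element, the direct repeat with 5 bases between its repeats. It was found on the minus strand 32 to 16 bases before the start of Cyp26a1. On either strand, 0.0974% of 32851 promoters of the same 300 bases held it, and of the 140 called genes with a promoter in the table Cyp26a1 was the 1 gene with a match. The element searched in the second was the C/EBP-ATF response element, TGATGNAAC or TGATGNAAT, found on the minus strand 194 to 186 bases before the start of Chac1. It was in 1.77% of promoters, and 2 of the 140 genes had a match, Chac1 and Tiam2. Neither promoter held a match to the other element, so the matches do not overlap. A match is a stretch of letters and not a site shown to be bound.

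Heart and muscle genes rose as a partial set. Tnnc1, the calcium-binding troponin of heart and slow muscle, was at 8.23 and 8.35 CPM at day 7 and at 34.9 and 34.7 CPM at day 10 (log2 2.07, SE 0.18, adjusted p = 0.00959). Myh7, a slow and cardiac myosin heavy chain, rose from 2.85 and 2.77 CPM to 8.50 and 10.7 CPM, and Myl4, the atrial myosin light chain, from 0.874 and 0.430 CPM to 3.60 and 3.24 CPM. The call of Myl4 was lost with limma-voom and without day 7 replicate 2 (adjusted p up to 0.0574). Csrp3, a Z-disc protein of striated muscle, had 0 counts in both day 7 libraries and 74 over both day 10 libraries. Against a floor of 3 counts over the day 7 group it was at least 35.5-fold higher.

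Cardiac regulators were called too. Hand1, a factor of extraembryonic and left ventricular mesoderm, rose from 10.0 and 10.9 CPM to 28 and 39.9 CPM. Hand2, its relative in the right ventricle and limb, rose from 0.338 and 0.191 CPM to 3.13 and 7.13 CPM. Isl1, a marker of second heart field progenitors, rose from 0.169 and 0.191 CPM to 2.19 and 1.99 CPM, levels that stand for under 50 counts a library. With Tnnc1, Myh7, Myl4 and Csrp3 these made 7 of 23 tested members, with 0 falls, and the median log2 fold change was 1.10. Of all genes tested, 1.27% were called higher and 0.127% lower. Of the 7 risers, Hand2, Isl1, Myl4 and Csrp3 passed the filter through day 10 alone, as did 5 of the 23 members tested. The list's count of rises and its median are tilted upward by these members. Nkx2-5, a defining cardiac factor, was at 2.82 and 2.86 CPM and then at 2.14 and 3.29 CPM. Actc1, the cardiac actin, moved the other way in value, from 47.2 and 30.9 CPM to 15.1 and 14.3 CPM, with an adjusted p of 0.0501, and was called lower in 8 of 13 alternatives (adjusted p up to 0.176). The titin gene Ttn, at 14.6 and 10.3 CPM the highest at day 7 of the genes listed for day 7 only, could not be compared. Acta2, the smooth muscle actin, was the 1 called of 11 tested smooth muscle genes, from 122 and 135 CPM to 243 and 349 CPM, and it lost its call in 3 of 13 alternatives, 1 of them without day 7 replicate 1 (adjusted p up to 0.0613). Related actin genes share sequence, so their counts are uncertain where reads were split between them.

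Single genes of 4 further lists rose. Pdgfra, a growth factor receptor of mesoderm and primitive endoderm, rose from 1.69 and 1.34 CPM to 11.4 and 21.1 CPM (log2 3.40, SE 0.37, adjusted p = 0.0182). Msx2, a homeobox target of BMP signalling, rose from 6.99 and 7.30 CPM to 23.4 and 38.3 CPM. Sox9, the regulator of cartilage and of many epithelial progenitors, rose from 3.75 and 2.67 CPM to 13.6 and 15.8 CPM. Six2, a factor of nephron progenitors and head mesenchyme, rose from 3.81 and 3.06 CPM to 11.1 and 17.8 CPM. These 4 each belong to another list (fibroblast, neural crest, cartilage and bone, nephron), in which 3 of 20, 1 of 13, 1 of 5 and 2 of 7 tested genes rose and 0 fell. The shares over all genes tested were 1.27% higher and 0.127% lower.

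Posterior Hox genes rose from low levels. Hox genes give the body axis its positional identity, and those with high numbers act toward the tail. Hoxd9 was at 0.423 and 0.191 CPM at day 7 and at 4.01 and 4.99 CPM at day 10 (log2 3.76, SE 0.42, adjusted p = 0.0195). Hoxb9 rose from 1.75 and 1.43 CPM to 4.74 and 6.58 CPM, but lost its call in 3 of 13 alternatives, 1 of them without day 7 replicate 2 (adjusted p up to 0.0633). Hoxd10 was at 2 counts over the day 7 libraries and 41 over the day 10 libraries, a ratio of 29.5 (95% counting interval 7.66 to 252, adjusted p = 0.0321). These were 3 of 16 tested Hox genes, against 1.27% called higher of all genes tested. Hoxd9, Hoxd10 and 6 others of the 16 passed the filter through day 10 alone, so the list has no median or tally of directions here. The 39 Hox genes of the list also held 15 that were in the day 7 table only and 8 below the count filter. Hoxd13 was at 2.14 and 2.72 CPM and then at 1.09 and 1.45 CPM (adjusted p = 0.257).

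Simple epithelial keratins rose, and the adhesion genes Cdh1 and Epcam of the same list did not. Krt8 and Krt18, partners in the first intermediate filament of embryonic epithelia, were at 196 and 218 CPM and at 271 and 342 CPM at day 7. At day 10 Krt8 was at 609 and 673 CPM (log2 1.63, SE 0.15, adjusted p = 0.011) and Krt18 at 822 and 913 CPM (log2 1.50, SE 0.18, adjusted p = 0.0205). Krt19 rose from 92.7 and 96.6 CPM to 206 and 232 CPM, and Krt7 from 8.82 and 14.1 CPM to 41.2 and 52.6 CPM. Cldn4, a tight junction claudin, rose from 179 and 194 CPM to 369 and 358 CPM, a call lost without either day 7 library (adjusted p up to 0.251). These 5 were the calls among 13 tested epithelial genes, with 0 falls, against 1.27% higher and 0.127% lower of all genes tested. The list's median log2 fold change was 0.37. The adhesion genes Cdh1, at 1209 and 1401 CPM and then 1024 and 1377 CPM, and Epcam, at 219 and 244 CPM and then 225 and 198 CPM, had overlapping groups. The cornified envelope genes Sprr1a and Sprr2a3 rose as well, with log2 fold changes of 3.19 (SE 0.28) and 5.15 (SE 0.47). Sprr2a3 and the keratins have near-identical copies or pseudogenes, so their counts are uncertain. None of the 4 tested stratified epithelium genes was called, with 1 higher and 1 lower at an unadjusted p under 0.05, against 9.85% higher and 5.9% lower of all genes tested.

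Some matrix genes rose. Col1a1, the main fibrillar collagen chain, rose from 28.7 and 26.5 CPM to 73.7 and 110 CPM (log2 1.74, SE 0.23, adjusted p = 0.0264). Col4a2, a basement membrane chain, rose from 101 and 97.8 CPM to 234 and 407 CPM. Col23a1, a transmembrane collagen, rose from 2.00 and 0.859 CPM to 16.8 and 23.4 CPM, and the X-linked basement membrane chain Col4a6 from 3.81 and 3.96 CPM to 10.0 and 15.8 CPM. Col4a6 did not pass with limma-voom or in the fit with 8 libraries (adjusted p up to 0.0535). These were 4 of 27 tested collagens, with 0 falls, 21 positive values and a median log2 fold change of 0.88, and 20 of the 27 were higher in day 10 replicate 2 than in replicate 1. Of all 14143 genes tested, 1.27% were called higher, 0.127% lower, and 7023 had positive values. Fn1 (fibronectin), at 853 and 723 CPM and then 1390 and 2697 CPM, did not pass (adjusted p = 0.0941). Vim, the mesenchymal intermediate filament, rose from 217 and 156 CPM to 509 and 566 CPM.

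The stem cells had been kept on fibroblast feeders, and some fibroblast markers rose as well. Col1a1 belongs to both the fibroblast and the collagen list, so these lists are not independent. Of 20 tested fibroblast markers 3 rose (Pdgfra, Col1a1 and Postn) and 0 fell, against 1.27% and 0.127% of all genes tested. The list's median was 0.73, and its summed level was 1132 to 1274 CPM at day 7 and 1903 to 3372 CPM at day 10. Postn (periostin) was at 0.423 and 0.239 CPM and then at 1.77 and 2.69 CPM, and did not pass with limma-voom (adjusted p = 0.0521, the highest of its alternatives). The part of these markers in the collagen result was not tested. In the parietal endoderm list, whose cells make a thick basement membrane, Col4a2 and the protease gene Plat were the 2 calls of 9 tested. Plat rose from 8.06 and 8.59 CPM to 19.7 and 26.8 CPM, and the list's median was 0.96.

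Blood and vessel genes gave a mixed picture. Runx1, the regulator of definitive blood, rose from 8.85 and 9.17 CPM to 20.8 and 26.4 CPM, and the macrophage receptor gene Csf1r from 0.141 and 0.191 CPM to 1.15 and 1.25 CPM. Both lost their call without day 7 replicate 1, with adjusted p-values of 0.0568 and 0.172, the highest of their alternatives. They were 2 of 17 tested blood genes, against 1.27% called higher of all genes tested. Values were negative in 11 of the 17, against 7120 of all 14143 genes, and the median was -0.29. Of the 17, 4 passed the filter on low counts through day 7 alone and 2 through day 10 alone. Tal1, the early blood and endothelial regulator, was at 5.24 and 4.44 CPM at day 7 and at 1.72 and 1.25 CPM at day 10 (adjusted p = 0.0534), and was called lower in 9 of 13 alternatives (adjusted p up to 0.133). The myeloid receptor gene Pilra had 0 counts at day 7 and 52 at day 10, at least 24.9-fold higher against a floor of 3 counts over the group. None of 14 endothelial genes was called, with 1 higher and 3 lower at an unadjusted p under 0.05, against 9.85% and 5.9% of all genes tested. The VEGF receptor gene Kdr was at 5.95 and 2.82 CPM and then at 15.3 and 38.4 CPM (adjusted p = 0.071) and was called higher in 8 of 13 alternatives (adjusted p up to 0.0882), while the endothelial co-receptor gene Eng was at 96.2 and 93.6 CPM and then at 47.5 and 56.7 CPM (adjusted p = 0.0648) and was called lower in 6 of 13 (adjusted p up to 0.44).

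Imprinted and signalling-response genes added single calls. Igf2, a paternally expressed growth factor, rose from 45.6 and 51.3 CPM to 131 and 224 CPM (log2 1.88, SE 0.26, adjusted p = 0.0312), the 1 call among 29 tested imprinted genes. H19, its maternally expressed neighbour, was at 239 and 262 CPM and then at 437 and 463 CPM with an adjusted p of 0.0501, and passed in 10 of 13 alternatives. Usp18, an interferon-induced deubiquitinase, rose from 0.395 and 0.477 CPM to 6.67 and 6.33 CPM (log2 3.91, SE 0.31, adjusted p = 0.00959). It was called with B2m, the MHC class I light chain gene, which went from 52.9 and 61.8 CPM to 106 and 118 CPM (adjusted p = 0.0479), as the 2 of 18 tested genes of the interferon and MHC list. Set beside this list and the imprinted list, 1.27% of all genes tested were called higher. B2m lost its call in 4 of 13 alternatives, among them without either day 7 library (adjusted p up to 0.424). The interferon-induced genes Isg15 and Ifit1 did not pass, with adjusted p-values of 0.0648 and 0.561.

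**Figure D3:**
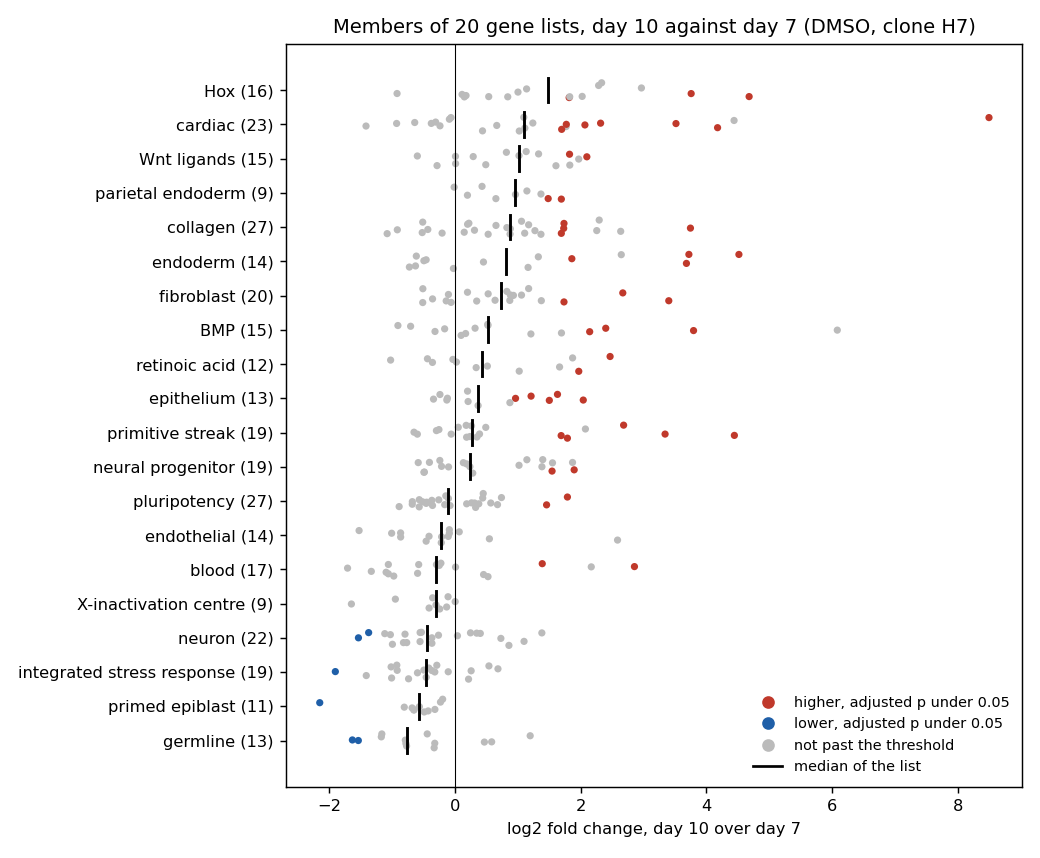
Log2 fold change of day 10 over day 7 (across) for the tested members of 20 of the 47 gene lists, those described in the text, 1 row per list with its number of tested members, ordered by the list's median (black bar). The primed epiblast and germline lists lie lowest of those plotted, with medians of -0.57 and -0.77. The Hox list is drawn highest, but 8 of its 16 members passed the filter through day 10 alone, so its bar and its place are not a result. Other bars are tilted toward rises by such members too, among them cardiac (5 of 23), neural progenitor (3 of 19) and endoderm (2 of 14). In the blood list 4 of 17 passed through day 7 alone and 2 through day 10 alone.

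Of 27 tested genes of the pluripotency list, 0 fell and 2 rose, with a median log2 fold change of -0.10. At an unadjusted p under 0.05, 4 were higher and 6 lower, against 9.85% and 5.9% of all genes tested. Of the 27, 21 were lower in day 10 replicate 2 than in replicate 1. Pou5f1 (Oct4), the central pluripotency factor, was at 751 and 747 CPM at day 7 and at 684 and 407 CPM at day 10, a log2 fold change of -0.46 (SE 0.25, adjusted p = 0.435). Without day 10 replicate 1 it was called lower (log2 -0.88, adjusted p = 0.000357), and without day 10 replicate 2 it was at -0.13 (adjusted p = 0.458). Nanog was at 292 and 334 CPM and then at 253 and 232 CPM (log2 -0.37, adjusted p = 0.305), and was called lower without day 10 replicate 1 (log2 -0.43, adjusted p = 0.0286). Sox2 was at 258 and 269 CPM and then at 253 and 245 CPM. The libraries of the days did not overlap for these 3 genes, but the differences were of the size of the replicate spread at day 10 for Pou5f1. The 2 risers were Klf4, from 37.9 and 32.2 CPM to 96.8 and 96.1 CPM, and Tbx3, from 12.7 and 9.93 CPM to 28.8 and 49.6 CPM. Both are naive pluripotency factors that are also made in epithelium and mesoderm, and Tbx3 lost its call in 2 of 13 alternatives (adjusted p up to 0.0543).

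The primed epiblast list had 1 fall and 0 rises. All 11 tested genes had negative values, for a median of -0.57, and 10 of the 11 were lower in day 10 replicate 2 than in replicate 1. Of all 14143 genes tested, 7120 had negative values and 0.127% were called lower. Fgf15, a growth factor of epiblast and early neural tissue, was at 38.9 and 43.6 CPM at day 7 and at 11.6 and 6.93 CPM at day 10, so that it fell by 2.15 on the log2 scale (SE 0.27, adjusted p = 0.0241). It did not pass in the fit with 8 libraries of clone H7 (adjusted p = 0.0616, the highest of 13 alternatives). The de novo methyltransferase gene Dnmt3a was at 309 and 260 CPM and then at 182 and 144 CPM (adjusted p = 0.09), and the POU factor gene Pou3f1 at 207 and 223 CPM and then at 141 and 127 CPM (adjusted p = 0.0852). Fgf5, the standard marker of formative epiblast, was at 194 and 238 CPM and then at 190 and 178 CPM.

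Neuronal genes were a further group with falls. Nefl, the light neurofilament chain, was at 319 and 316 CPM at day 7 and at 135 and 110 CPM at day 10, and fell by 1.37 on the log2 scale (SE 0.16, adjusted p = 0.0205). Neurod1, a proneural factor, was at 8.99 and 11.5 CPM and then at 3.70 and 3.34 CPM, but its call was lost in 3 of 13 alternatives, 1 of them without day 7 replicate 2 (adjusted p up to 0.0972). The neuron list had 2 falls and 0 rises among 22 tested genes and a median of -0.45, but it did not move together, and 8 of the 22 had positive values. At an unadjusted p under 0.05, 5 were higher and 9 lower, against 9.85% and 5.9% of all genes tested. Other falls outside the lists were in genes active in nerve: Bcl11a, a zinc finger repressor of blood and cortex, fell by 2.21 (SE 0.25, adjusted p = 0.0195), from 10.6 and 9.98 CPM to 1.98 and 2.44 CPM. Pou4f3, a POU factor of sensory neurons, fell from 1.83 and 1.77 CPM to 0.209 and 0.199 CPM, and the ephrin receptor gene Epha8 from 13.8 and 13 CPM to 5.16 and 3.54 CPM. Pou4f3 had 65 and 37 counts at day 7 and 4 in each day 10 library. It passed the filter on low counts through day 7 alone, so its being tested rests on its day 7 level. Neural progenitor genes did not share this: En1, a midbrain homeobox factor, and Sox21, a SoxB factor, rose, as 2 of 19 tested with 0 falls and a median of 0.24. Of all genes tested, 1.27% were called higher and 0.127% lower. Of the 19, 3 passed the filter on low counts through day 10 alone. En1 was at 3.92 and 2.86 CPM and then at 10.3 and 9.72 CPM, with a call lost in 2 of 13 alternatives, 1 of them without day 7 replicate 2 (adjusted p up to 0.115). Sox21 was at 3.47 and 2.05 CPM and then at 11.5 and 9.42 CPM.

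Germline and stress response genes made up further falls. Tdrd1 and Ddx4, both of the piRNA machinery of germ cells, fell by 1.63 and 1.54 on the log2 scale. Tdrd1 was at 9.39 and 9.26 CPM and then at 2.76 and 3.24 CPM, and Ddx4 at 9.78 and 12 CPM and then at 3.55 and 3.94 CPM, though the call of Ddx4 was lost in 2 of 13 alternatives, 1 of them without day 7 replicate 2 (adjusted p up to 0.0718). They were the 2 calls among 13 tested germline genes, with 0 called rises and a median of -0.77. The germline list did not move together, with 10 negative and 3 positive values. Of its 13 genes, 3 were higher and 6 lower at an unadjusted p under 0.05, against 9.85% and 5.9% of all genes tested. Chac1, a glutathione-degrading enzyme induced by the factor ATF4 in the integrated stress response, was at 22.3 and 35.1 CPM at day 7 and at 7.77 and 7.53 CPM at day 10 (log2 -1.90, SE 0.26, adjusted p = 0.0306). It was the 1 call among 19 tested genes of that response, of which 15 had negative values, with a median of -0.46. Of all 14143 genes tested, 0.127% were called lower and 7120 had negative values. Of the 19, 17 were lower in day 10 replicate 2 than in replicate 1, and 18 were higher in day 7 replicate 2 than in replicate 1. Trib3, another ATF4 target, was at 20.3 and 27.6 CPM and then at 10.9 and 7.08 CPM (adjusted p = 0.0678), and Atf4 itself at 344 and 407 CPM and then at 342 and 272 CPM.

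Myb, a progenitor factor of blood and other tissues, fell by 1.26 (SE 0.18, adjusted p = 0.0312), from 37.8 and 36.3 CPM to 16.3 and 14.7 CPM, and lost its call without day 7 replicate 1 (adjusted p = 0.0598, the highest of 13 alternatives). Further falls were the matrix gene Thbs4, the membrane protein genes Prom2 and Pllp, the hematopoietic cytoskeleton regulator Nckap1l, the transporter Slc43a3, the receptor Epha1 and the metalloproteinase Mmp25, with log2 fold changes between -1.93 and -0.95. Of these, Nckap1l, Slc43a3, Epha1 and Mmp25 lost their calls in 2, 4, 4 and 5 of 13 alternatives. Leaving out day 7 replicate 1 ended all 4 calls, with adjusted p-values of 0.0694, 0.111, 0.178 and 0.457, and leaving out day 7 replicate 2 ended the last 3. Since the day 10 table may leave out genes with few counts at day 10, a gene that fell to near 0 could be missing from this set.

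**Figure D4:**
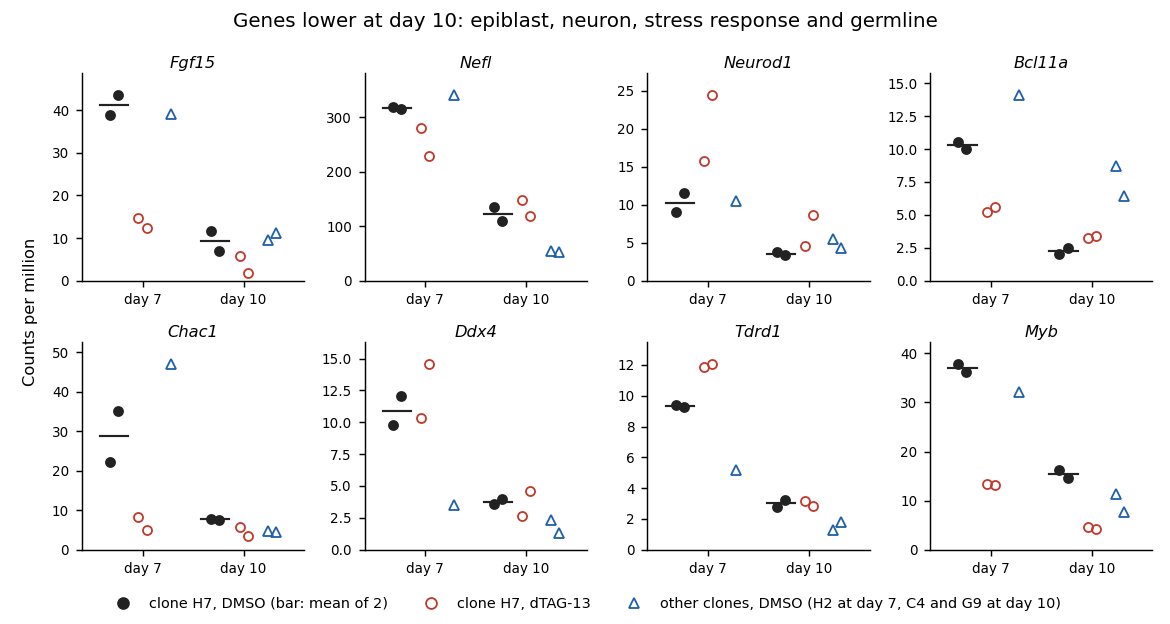
CPM (upward axis, linear, from 0) of 8 genes that fell, with markers as in the plot of risers: filled circles for the 4 DMSO libraries of clone H7 (bar at the mean of 2), open circles for dTAG-13 and triangles for other clones. Nefl goes from 319 and 316 CPM to 135 and 110 CPM, and the 2 days do not overlap in the filled circles of any panel.

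Genes of the X chromosome and its inactivation centre were not called as a group. Xist, the RNA that coats the inactive X, was at 704 and 967 CPM at day 7 and at 432 and 1092 CPM at day 10, so that the day 10 libraries lay on both sides of the day 7 ones (log2 -0.13, SE 0.40, adjusted p = 0.921). Without day 10 replicate 2 Xist was called lower (log2 -0.95, adjusted p = 0.00407), and without day 10 replicate 1 it was at 0.39 with an adjusted p of 0.104. Tsix, its antisense partner, was at 28 and 25.7 CPM and then at 22.3 and 18 CPM (adjusted p = 0.362). Reads of this pair cannot be told apart where counting ignores strand. Rlim, an E3 ligase that activates Xist, was at 250 and 296 CPM and then at 221 and 285 CPM, with an adjusted p of 0.842. None of 9 genes of the centre passed (0 higher and 2 lower at an unadjusted p under 0.05, against 9.85% and 5.9% of all genes tested). Of 529 tested X-linked genes 5 rose and 0 fell, 0.945% against the 1.27% over all genes, with a median of -0.02. The 5 were Capn6, Efnb1, Gpc3, Col4a6 and Nxf7. Without day 7 replicate 1, Gpc3 and Nxf7 did not pass (adjusted p = 0.23 and 0.0881, the highest of their alternatives), and Gpc3 also did not pass without day 7 replicate 2. Capn6, a microtubule-stabilising calpain of embryonic muscle and placenta, rose from 6.31 and 4.68 CPM to 33.9 and 52.5 CPM.

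Genes of proliferation and chromatin showed no call. None of 26 mitosis genes, 30 DNA replication genes, 32 Polycomb genes or 8 DNA methylation genes passed, with medians of -0.16, -0.12, -0.02 and -0.30. At an unadjusted p under 0.05 the counts were 0 higher and 2 lower, 0 and 3, 2 and 4, and 0 and 2. Over all genes tested the shares were 9.85% higher and 5.9% lower. Values were negative for 23 of the 26 mitosis genes and 28 of the 30 replication genes, against 7120 of all 14143 genes tested. In day 10 replicate 2, 18 of the 26 and 26 of the 30 were lower than in replicate 1, with a median log2 difference of -0.33 for the replication genes. Ezh2, the Polycomb methyltransferase, was at 217 and 220 CPM and then at 214 and 192 CPM. The tagged gene Wapl was at 769 and 853 CPM and then at 619 and 806 CPM (adjusted p = 0.701), and the cohesin subunit gene Rad21 at 303 and 352 CPM and then at 262 and 351 CPM (adjusted p = 0.869).

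The same genes were read in libraries that took no part in the choice. In clone H7 with WAPL degraded by 500 nM dTAG-13 for 3 days, there were 2 libraries each at day 7 and day 10, in the same pair of tables. All 179 risers had a higher mean at day 10 there, and in 177 both day 10 libraries were above both day 7 libraries, against 22.2% of all genes tested. The exceptions were Cldn4 and Tbx2. All 18 fallers had a lower mean, and 17 lay apart, against 20.5% of all genes tested. Median log2 ratios, on means of CPM + 0.5, were 1.37 for the risers and -1.43 for the fallers. In DMSO libraries of other clones, the RAD21-degron clones C4 and G9 at day 10 (DMSO for 8 hours) were both above the WAPL-degron clone H2 at day 7 (DMSO for 3 days) for all 179 risers, against 45.4% of all genes. They were both below it for 17 of 18 fallers, against 41.9%. Clone and table differ along with day in that reading, and it has 1 library per clone.

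Single genes differed in level between these sets. Lhx1 was at 3.39 and 1.87 CPM at day 7 and at 38.9 and 39.9 CPM at day 10 with dTAG-13, and at 21.7 CPM in H2, 189 CPM in C4 and 251 CPM in G9. Sox17 was at 2.68 and 2.30 CPM and then at 8.98 and 11.8 CPM with dTAG-13, and at 2.90, 50.2 and 101 CPM in H2, C4 and G9. Both rises were thus also present outside the 4 libraries, to other levels. For some streak and endoderm genes, H2 at day 7 was already at or near the day 10 DMSO level of H7. Foxa2 was at 25.3 CPM there, Gsc at 14.1 CPM and Cer1 at 6.92 CPM. Mixl1 (23.2 CPM), Gata6 (5.16 CPM) and Cdx2 (1.13 CPM) were below that level in H2. Chac1 was at 8.35 and 5.05 CPM with dTAG-13 at day 7, near the day 10 DMSO values, and at 5.71 and 3.39 CPM at day 10. It was at 47 CPM in H2 and at 4.70 and 4.56 CPM in C4 and G9. Myb was at 13.3 and 13.2 CPM with dTAG-13 at day 7 and at 4.65 and 4.12 CPM at day 10. Pou5f1 was at 943 CPM in H2 and at 402 and 345 CPM in C4 and G9.

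**Figure D5:**
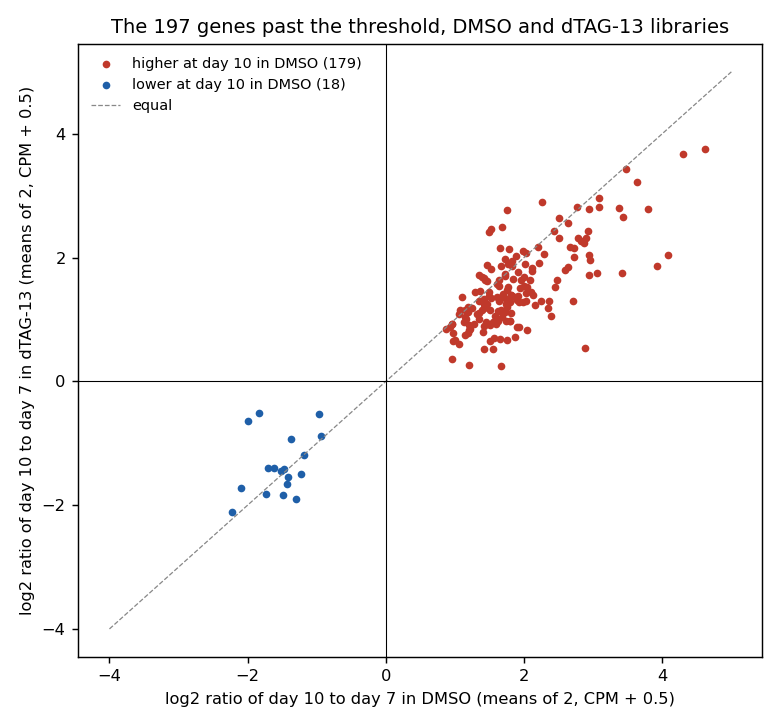
Each point is 1 of the 197 called genes, with the log2 ratio of day 10 to day 7 in the DMSO libraries of clone H7 across and in its dTAG-13 libraries upwards, both from means of 2 libraries of CPM + 0.5, and the dashed line marking equal ratios. All 179 risers (red) lie above 0 and all 18 fallers (blue) below 0 on both axes.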

How the data were processed

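Each library's values are raw counts by gene, deposited by the authors without normalization, in 1 table for day 7 and 1 for day 10. Per the submitters' processing notes TopHat2, Novoalign, HOMER, DESeq and DESeq2 and the build mm9 were used in the series, with no role given. How reads were counted, and whether by strand, is not given in the sources read here, nor is any filter on the day 10 table. Sample titles gave the groups and replicate numbers, and no column lacked a sample.

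Tables were joined on the gene symbol. The 4 libraries were tested in edgeR 4.0.16 (R 4.3.3), with TMM factors, a filterByExpr minimum of 10 counts and the quasi-likelihood test on 2 residual degrees of freedom. Calls needed a Benjamini-Hochberg adjusted p under 0.05. CPM are counts divided by the library total and its TMM factor, and other libraries were scaled to the same reference. A floor of 3 counts corresponds to 0.0846 to 0.156 CPM in the 4 libraries. Replicates were each counted once, since chi-square per gene was 13.3 at day 7 and 54.1 at day 10, above sampling noise. Named genes were the 15 largest called rises and falls with groups apart and a mean log2 CPM of 2 or more, up to 4 members of each of 47 lists by smallest p, and a few fixed genes. Other members of a list's calls, further falls, the X-linked calls and the comparison genes that did not move were named after their values were seen. Of the calls, 1 gene is not reported here by name. The members and lists were chosen with earlier results of these data known, and lists are described by counts and medians with no set test. Alternatives were RLE, upper quartile and total scaling, no filter, a filter on a mean of 50 counts, limma-voom (limma 3.58.1), DESeq2 1.42.0, a replicate block, 8 libraries of the clone, and leaving out each library. Promoters came from RefSeq (GRCm38.p6), and figures were drawn with matplotlib 3.10.9.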

Additional observations from a re-analysis of the deposited data

Results flagged for a closer look

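Myc, a growth-promoting transcription factor, had small differences of opposite sign in the DMSO and dTAG-13 libraries of clone H7. It was not called in DMSO, nor in any of 13 alternative analyses. In DMSO it was at 85.2 and 92.5 CPM at day 7 and at 71.6 and 82.4 CPM at day 10, a log2 fold change of -0.21. With dTAG-13 it was at 42.4 and 36.7 CPM and then at 51.4 and 50.2 CPM, a log2 ratio of 0.36. Every day 10 library was below both day 7 libraries in the first set and above both in the second. Such a lack of overlap is common, at 23.1% of all genes on the lower side in DMSO and 22.2% on the higher side with dTAG-13. Myc was picked from the genes of the text by this pattern, which says little about a single gene. The difference between the sets was not tested.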

How the results depend on the processing

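With 4 libraries the count of genes past the threshold depended on the analysis. Against 197 calls, library totals gave 298, DESeq2 641 (498 higher, 143 lower), the fit with 8 libraries of clone H7 358 (306 higher, 52 lower), and a replicate block 1609 (1066 higher, 543 lower). Leaving out 1 library each gave 248 to 3101 calls, the low end without day 7 replicate 1 and the high end without day 10 replicate 1, and the lone library of a day was then assumed to vary like the other day's pair. RLE scaling, upper quartile scaling, no filter, a mean count of at least 50 and limma-voom gave 197, 266, 226, 150 and 166. None of the 197 genes reversed in any of these, and all 197 stayed called with library totals, DESeq2 and the block. Fewer of them stayed called in other settings: 178 in the fit with 8 libraries of clone H7, 164 with limma-voom and 150 with a mean count of at least 50, which tests fewer genes. Some also lost their call without either day 7 library. The block is no paired design: the labels do not say that replicate numbers pair the days, there are only 2 pairs, and same-numbered deviations correlated with r = 0.327 across genes. Of 1222 counts of list members called under an alternative, 322 differed from the value reported. Values near 0 changed sign without 1 library: Xist ranged from -0.95 to 0.39, with 0.11 without day 7 replicate 2 and 0.39 without day 10 replicate 1. Under the same settings Rad21 (range -0.33 to 0.10) was at 0.014 and 0.10, and Rlim (-0.30 to 0.062) at 0.017 and 0.062. Cdh1 (-0.35 to 0.078) and Nkx2-5 (-0.41 to 0.21) were above 0 without day 10 replicate 1, and Eomes (-0.094 to 0.19) below 0 without day 10 replicate 2. Genes that did not pass could gain a call: Fn1 did in 6, Isg15 in 7, Smad7, Trib3 and Pou3f1 in 5, Dnmt3a in 4, T in 2 and Tsix in 1 of 13 alternatives, and Bmp5 in 9 of 12. Depth limits genes near the floor of 3 counts, among them Csrp3, Pilra, Shh and Hoxd10 at day 7 and Pou4f3 at day 10.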
